A study of Mus musculus with 48 samples.

Results

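The genes described here are 10 Polycomb genes: Ezh1, Ezh2, Eed, Suz12 and Phf1 of Polycomb repressive complex PRC2, and Bmi1, Cbx7, Phc1, Phc2 and Phc3 of complex PRC1. They are 10 of the 34844 gene names on the array and are covered by 21 probes, which were found by the gene name in the array files with control spots left out. The set was drawn up with results of these data known. Phf1 and Phc3 head it because their levels in the blood of ovariectomized and stressed mice lay furthest below those of control mice, so their blood values are a description with no test, and the same holds for the difference of that group from control mice in blood for all 10 genes.

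RNA from blood cells and from medial prefrontal cortex (mPFC) was measured in 17-week-old female C57BL/6J mice on 48 one-colour Agilent arrays, 1 array per mouse and tissue. Control mice had a sham operation and no stress. CUMS mice had a sham operation and chronic ultra-mild stress, a schedule of small daily and nightly disturbances that ran for several weeks. OVX mice had both ovaries removed and no stress, and OVX+CUMS mice had both treatments, with 6 mice in each of the 4 groups. The blood sample was the pellet of heparinized whole blood, which holds red cells, white cells and platelets together, so that fewer cells of a type and less RNA per cell cannot be told apart in these data. The labels give a group and a number, and blood and mPFC with the same ones were taken as 1 mouse.

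Polycomb proteins keep genes silent by marking and compacting chromatin. PRC2 methylates lysine 27 of histone H3: Ezh1 and Ezh2 are its alternative catalytic subunits, Eed reads the mark and Suz12 holds the core together. Phf1 is an accessory subunit that binds methylated lysine 36 of the same histone. PRC1 ubiquitinates histone H2A, with Bmi1 as a partner of its ubiquitin ligase, Cbx7 as a reader of the PRC2 mark and the polyhomeotic proteins Phc1, Phc2 and Phc3 as the subunits that cluster complexes. Both complexes are known in blood stem cells and lymphocytes, where Ezh2 and Bmi1 are needed for renewal and proliferation, and in neurons, where Ezh1 is the main catalytic subunit after cell division ends.

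Levels are given as the log2 of the processed signal minus the 75th percentile of the array, so that 0 is the signal of the probe at that percentile and a difference of 1 is a 2-fold difference. A probe was called detected in a tissue when it stood well above background on all 24 arrays of the tissue and its signal was above 50 on at least 2. By this rule 11 of the 21 probes, of 9 genes, were detected in blood, 15 probes of all 10 genes were detected in mPFC, 10 probes were detected in both and 5 in neither. Blood was the dimmer tissue, with a 75th percentile of 54.9 to 191.5 signal units per array against 571.6 to 688.8 in mPFC. Of the lists of blood cell markers every gene was detected except Ly6c2, and all neuronal, astrocyte, oligodendrocyte, microglial and endothelial markers were detected in mPFC. The blood array of OVX+CUMS replicate 5 stood apart, with a neutrophil list at 3.47 on the centred log2 scale, the highest in its group, whose lowest array was at -0.62. Each tissue filled 3 slides. Slide 1 held the 6 control mice and 2 CUMS mice, slide 2 held 4 CUMS and 4 OVX mice, and slide 3 held 2 OVX mice and the 6 OVX+CUMS mice. No slide thus held both control and OVX+CUMS mice.

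A probe reads 60 bases of the transcript. The stretches of 30 bases with the fewest G and C are shown for the probes on which the results turn, because the probes of Phf1 and of Cbx7 gave different values and differ in base composition. Capitals mark the longest run of only A and T. Positions are those of the array files in build mm9.
Phf1, probe A_51_P220260, chr17:27074723-27074752, plus strand: cttttgagATAATTTTTTAAgactatttaa
Phf1, probe A_55_P1954998, chr17:27073245-27073274, plus strand: agggagATTAAAAAgcgaaaatgtcttttt
Phc3, probe A_52_P142531, chr3:30799181-30799210, minus strand: ATTAAAAATcaaaattcagaaattgttgga
Suz12, probe A_51_P214796, chr11:79847260-79847289, plus strand: ttaaagcagttatgctcttaatgcTTAAAA
Phc2, probe A_55_P2027067, chr4:128430069-128430098, plus strand: acTTTTTTAAccttttcttttgtttttaaa
Cbx7, probe A_55_P1980408, chr15:79748635-79748664, minus strand: TATTTTTATTTTTTAAAAAAgtagaagcac
Cbx7, probe A_55_P1980401, chr15:79746244-79746273, minus strand: cAAAAATTATTAAAAAATAcattaaaatgt

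Of its 60 bases, 35.0% are G or C in the leading Phf1 probe and 45% in the second, and the starts of these probes lie 1479 bases apart. The Cbx7 probes hold 45% and 20%. The second value is shared or undercut by only 0.3% of all probes on the array.

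Phf1 was scattered in blood of all 4 groups and had its lowest mean in the OVX+CUMS group. Its SD was 0.96 in control, 1.09 in CUMS, 0.69 in OVX and 0.77 in OVX+CUMS mice. By its leading probe the lowest, median and highest levels were -0.44, 0.88 and 1.93 in control, -1.16, 0.10 and 1.92 in CUMS, -1.75, -0.36 and 0.25 in OVX and -2.10, -0.77 and 0.21 in OVX+CUMS mice. All 4 groups overlapped. Relative to the mean of control mice the group means differed by -0.55 in CUMS, -1.21 in OVX and -1.53 in OVX+CUMS mice, which is a description, since these values chose the gene. The spread within groups (pooled SD 0.89 log2, n = 24) was wider than for 99.6% of the 20748 probes detected in blood, whose median SD was 0.28. With slide as a term of the model the OVX+CUMS mean lay at -0.48 relative to control. Within slides, CUMS minus control was 0.39 on slide 1 and OVX+CUMS minus OVX was -0.55 on slide 3. Leaving out the array of OVX+CUMS replicate 5, which stood apart, gave -1.56.

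The second Phf1 probe was above background on 12 of 24 blood arrays. Its group means differed from that of control mice by -0.86 in CUMS, -0.93 in OVX and -1.15 in OVX+CUMS mice, in the direction of the leading probe, but many of these levels lie in the background.

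Phc3, a PRC1 subunit, was the other leading gene. In blood its lowest, median and highest levels were -1.41, -0.49 and 0.57 in control, -1.46, -0.94 and 0.05 in CUMS, -1.46, -0.86 and -0.34 in OVX and -2.60, -1.64 and -0.75 in OVX+CUMS mice. The OVX+CUMS group reached lower than the other 3 but overlapped with each of them. Group means differed from control mice by -0.31, -0.38 and -1.06 in CUMS, OVX and OVX+CUMS mice, again as a description. The spread within groups (pooled SD 0.60) was wider than for 94.6% of detected probes. With slide in the model the OVX+CUMS difference was -0.31, and without replicate 5 of that group it was -1.025. The other Phc3 probes were above background on 1 and 5 of 24 blood arrays and gave no level there.

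**Figure D1:**
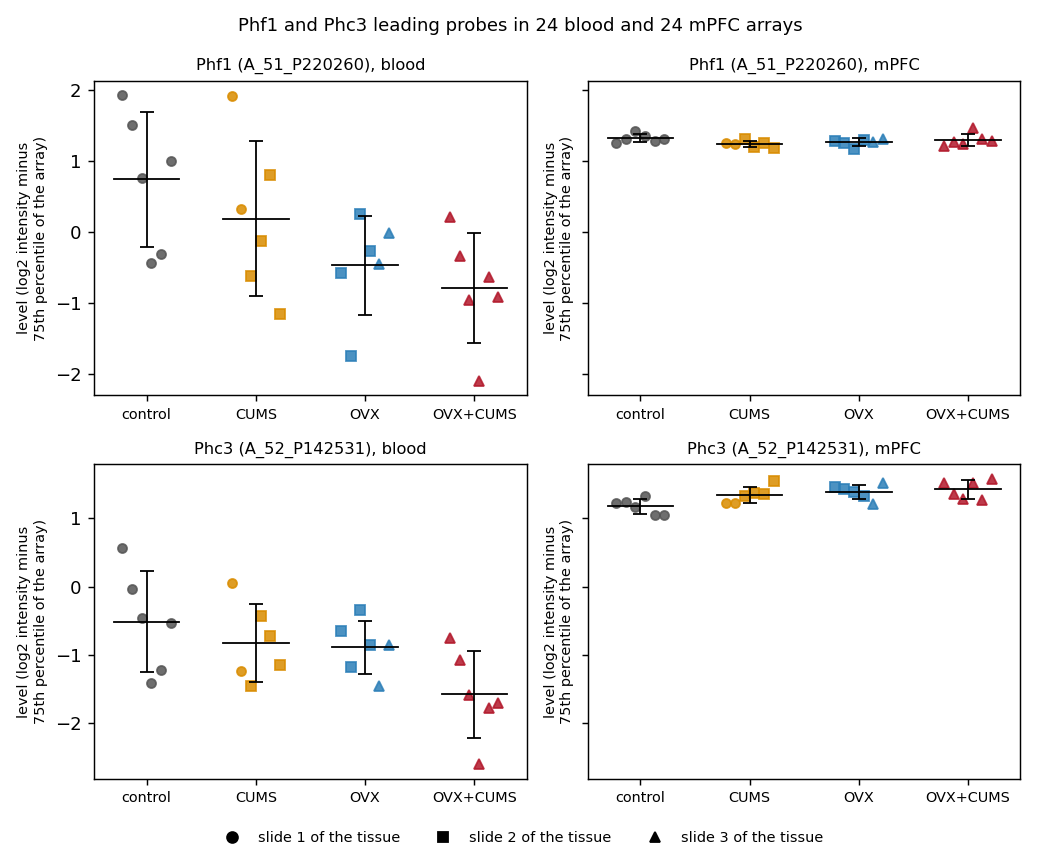
Log2 levels of the leading probes of Phf1 and Phc3 (signal minus the array's 75th percentile, y axis) in each mouse of the 4 groups, in blood and mPFC. Points are mice shaped by slide, with the group mean and bars of 1 SD. In blood the Phf1 points run from -2.10 to 1.93, while all 24 mPFC points lie between 1.17 and 1.47.

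Phf1 and Phc3 moved together from mouse to mouse. Over the 24 blood arrays, Pearson's r of their leading probes was 0.85 and Spearman's rho 0.81, and r was 0.79 without the 2 arrays furthest from the median of Phf1. After each group's mean had been subtracted, r was 0.84 and rho 0.81. The points share their arrays and both genes were chosen by their blood values, so these are descriptions. The detected probes of other named genes most like Phf1 over the 24 arrays included those of Tmem242 (r = 0.88) and of Adora2a (r = 0.86), an adenosine receptor. Those most like Phc3 were Ltb (r = 0.91), a lymphocyte cytokine, Ambra1 (r = 0.88), an autophagy regulator, and Phf1 itself (r = 0.85).

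Markers of blood cells moved less closely with either gene. The mean level of 6 T cell markers had r = 0.40 with Phf1 and 0.54 with Phc3, and 0.10 and 0.26 after group means were subtracted. For 4 NK cell markers r was 0.35 and 0.51, and 0.41 and 0.49 within groups. The T cell list ran from 0.06 to 0.44 in control, from -0.22 to 0.19 in CUMS, from -0.06 to 0.15 in OVX and from -0.67 to -0.09 in OVX+CUMS mice on the centred log2 scale. The value of -0.67 was that of OVX+CUMS replicate 5, the array that stood apart, and the next lowest in that group was -0.19. The part of T and NK cells in the Phf1 and Phc3 levels was not tested.

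**Figure D2:**
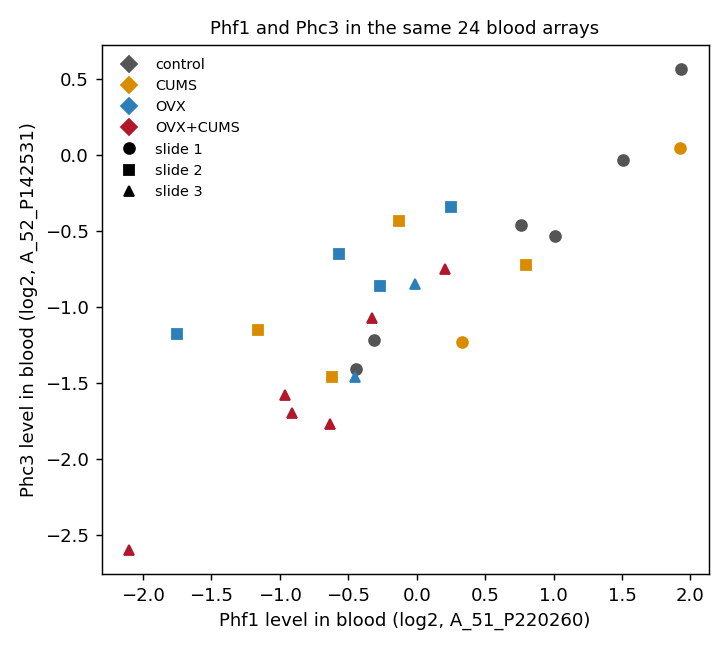
Log2 level of Phc3 (y axis) against that of Phf1 (x axis), leading probes, 1 point per blood array, coloured by group and shaped by slide. The 24 arrays run from low to high in both genes with r = 0.85, and the groups overlap.

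In mPFC the same probes were steady. Phf1 lay between 1.17 and 1.47 on all 24 arrays by the leading probe, with a pooled SD of 0.06 that was above that of only 3.2% of the 28353 probes detected there. Phc3 lay between 1.04 and 1.58, with a pooled SD of 0.12. Neither the OVX nor the CUMS effect on the leading Phf1 probe passed the test in mPFC (0.00 ± 0.03, adjusted p = 0.999, and -0.03 ± 0.03, adjusted p = 0.639, SE over 24 arrays, limma).

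The remaining genes were tested in blood by a factorial model over the 24 arrays, in which the CUMS effect is the mean difference with against without stress over both surgeries, and the OVX effect the mean difference between surgeries over both stress levels. The test was limma with Benjamini-Hochberg adjustment over all 20748 detected probes and a threshold of 0.05. Of the 9 probes of 7 genes with a test, 6 were lower and 1 was higher with CUMS. Over all detected probes 29.4% were lower and 19.1% higher, and the median difference was -0.03.

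The core of PRC2 was lower in the blood of stressed mice. Suz12, which holds the core together, had levels of 0.60, 0.66 and 1.18 (lowest, median, highest) in control, -0.35, 0.24 and 0.71 in CUMS, 0.91, 1.15 and 1.34 in OVX and 0.39, 0.83 and 1.02 in OVX+CUMS mice. Stressed mice sat below unstressed mice of the same surgery with some overlap. The CUMS effect was -0.45 ± 0.11 (SE, adjusted p = 0.00328). Eed, the reader of the PRC2 mark, had levels of 2.67, 2.81 and 3.12 in control, 2.04, 2.50 and 2.88 in CUMS, 2.93, 3.05 and 3.36 in OVX and 2.71, 2.96 and 3.08 in OVX+CUMS mice, with overlap within each surgery. Its CUMS effect was -0.26 ± 0.09 (adjusted p = 0.0256 in limma), and this call was lost without control replicate 1 (adjusted p = 0.0505).

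Ezh1, the catalytic subunit of resting cells, was read by a pair of detected probes in blood. Probe A_55_P2082869 gave 3.71, 3.87 and 4.04 in control, 3.19, 3.38 and 3.76 in CUMS, 3.83, 4.01 and 4.21 in OVX and 3.41, 3.64 and 3.95 in OVX+CUMS mice. Only the edges of the groups overlapped within a surgery. The CUMS effects of this probe and of A_55_P2155942 were -0.38 ± 0.08 (adjusted p = 0.0017) and -0.40 ± 0.08 (adjusted p = 0.00162, limma), so both detected Ezh1 probes fell by like amounts. The other Ezh1 probes missed detection in blood and without a filter gave -0.36 (A_55_P2017086, adjusted p = 0.0683) and 0.24 (A_55_P2017090, adjusted p = 0.462, limma).

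Ezh2, the catalytic subunit of dividing cells, missed detection in blood because 1 of 24 arrays, in the CUMS group, was not well above background. Its levels were -0.93, -0.85 and -0.56 in control, -2.16, -1.32 and -1.10 in CUMS, -0.83, -0.47 and -0.36 in OVX and -1.34, -0.88 and -0.75 in OVX+CUMS mice. CUMS mice did not overlap with control mice. In the fit without a detection filter, over 55681 probes, its CUMS effect was -0.54 ± 0.11 (adjusted p = 0.00632, limma) and its OVX effect 0.38 ± 0.11 (adjusted p = 0.014).

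Of PRC1, Bmi1 and Phc2 were lower with stress and the Phc1 probes differed. Bmi1, the partner of the ubiquitin ligase, had levels of -0.05, 0.36 and 0.70 in control, -0.47, -0.08 and 0.32 in CUMS, 0.31, 0.53 and 0.89 in OVX and -0.07, 0.28 and 0.58 in OVX+CUMS mice, with overlap within each surgery and a CUMS effect of -0.37 ± 0.11 (adjusted p = 0.00817, limma). Phc2, a polyhomeotic subunit, had levels of 2.53, 3.19 and 3.29 in control, 2.30, 2.86 and 3.24 in CUMS, 3.45, 3.64 and 3.80 in OVX and 3.14, 3.36 and 3.48 in OVX+CUMS mice. Its groups overlapped within each surgery, and the CUMS effect was -0.28 ± 0.10 (adjusted p = 0.023, limma). For Phc1, a polyhomeotic subunit as well, probe A_55_P2186405 was higher with CUMS by 0.35 ± 0.14 (adjusted p = 0.0361, limma), while probe A_51_P433430 gave 0.08 ± 0.10 (adjusted p = 0.491). The Phc1 call was lost in 11 of 24 fits that left out 1 array, and under normexp correction, the shift by the E1A spike-ins (0.06) and no detection filter, each of which left 0 members higher. Without a detection filter Eed (adjusted p = 0.0724) and Phc2 (adjusted p = 0.066) missed the threshold as well, in limma over 55681 probes. Cbx7, the chromodomain reader, had a CUMS effect of 0.00 ± 0.14 (adjusted p = 0.991).

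These CUMS calls held within slides. With slide as a term the same number of member probes, 7, passed (10303 of all probes passed, against 10056 without it). Within slide 1, CUMS minus control was -0.67 for Suz12, -0.39 for Eed, -0.45 for Bmi1 and -0.49 for Phc2. Within slide 3, OVX+CUMS minus OVX was -0.49, -0.41, -0.53 and -0.43 for the same genes. The Ezh1 probes differed by -0.39 and -0.35 on slide 1 and by -0.34 and -0.39 on slide 3. Each of these slides held 2 mice of one of its groups. Without OVX+CUMS replicate 5 the count stayed at 7.

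Some lists of blood cell markers moved with the same factor. The B, T and NK cell lists had lower means with CUMS in both surgeries, and the erythroid and neutrophil lists higher ones. The T cell means were 0.21 in control, -0.04 in CUMS, 0.04 in OVX and -0.22 in OVX+CUMS mice. The NK cell means were 0.09, -0.11, 0.13 and -0.1 in the same groups. The neutrophil list of OVX+CUMS mice holds replicate 5 at 3.47. The platelet list did not move alike in both surgeries. Its means were 0 in control, 0.31 in CUMS, -0.15 in OVX and -0.17 in OVX+CUMS mice. The 5 B cell markers ran from -0.30 to 0.13 in control, from -0.78 to -0.07 in CUMS, from 0.29 to 0.49 in OVX and from -0.93 to 0.32 in OVX+CUMS mice. The 5 erythroid markers ran from -0.59 to 0.94, from 0.27 to 1.35, from -1.06 to 0.32 and from -0.37 to 0.83 in the same groups. In OVX+CUMS mice the B cell low of -0.93 and the erythroid high of 0.83 were both replicate 5, the array that stood apart. The next values in that group were -0.11 and 0.09. The array's 75th percentile was 81.3 to 132.4 signal units in control, 54.9 to 104.9 in CUMS, 110.4 to 191.5 in OVX and 102.8 to 144.4 in OVX+CUMS mice. The part of cell make-up and of signal strength in the falls was not tested.

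**Figure D3:**
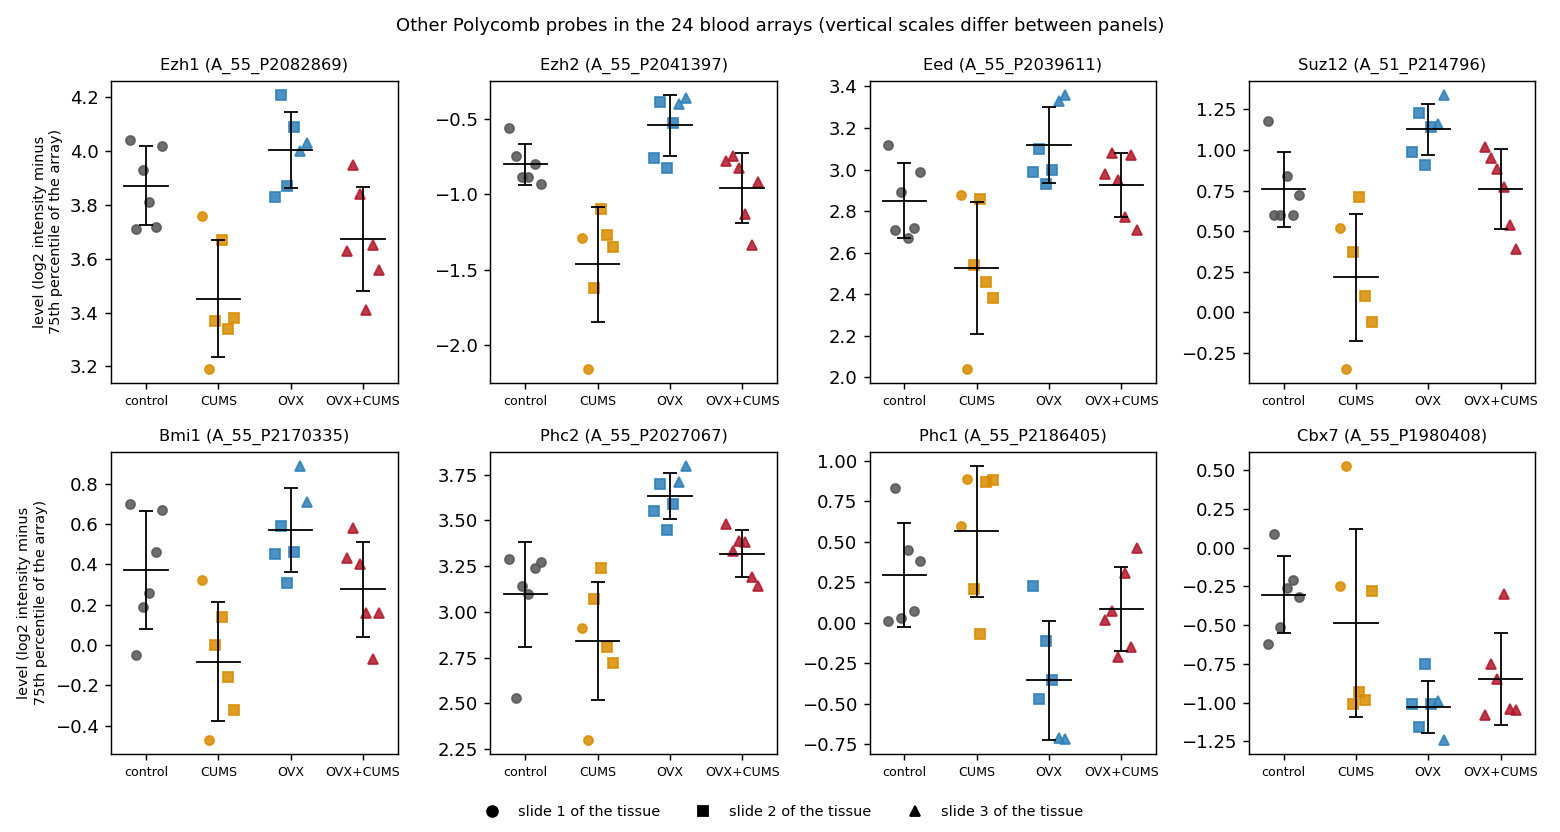
Log2 levels in blood (y axis) of the Polycomb genes with a test and of Ezh2, in each mouse of the 4 groups, with scales that differ between panels. Points are mice shaped by slide, with the group mean and bars of 1 SD. Suz12, Eed, Ezh1, Bmi1 and Phc2 lie lower in stressed than in unstressed mice of the same surgery, as in CUMS effects from -0.45 to -0.26.

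The OVX effect in blood ran the other way for several genes. Of the 9 probes, 4 were higher and 2 lower with OVX (without OVX+CUMS replicate 5, again 6 in all), where 27.4% of all detected probes were higher and 27.7% lower. Phc2 rose by 0.51 ± 0.10 (adjusted p = 0.000389), Suz12 by 0.46 ± 0.11 (adjusted p = 0.00187), Eed by 0.33 ± 0.09 (adjusted p = 0.00474) and Bmi1 by 0.28 ± 0.11 (adjusted p = 0.0322, limma). OVX mice lay above control mice without overlap for Phc2, from 3.45 upwards against 3.29 at most, and overlapped with them for Suz12, Eed and Bmi1. The falls were in Cbx7 (-0.54 ± 0.14, adjusted p = 0.00408) and in Phc1 by probe A_55_P2186405 (-0.56 ± 0.14, adjusted p = 0.00192, limma). The other Phc1 probe, A_51_P433430, had 0.02 ± 0.10 (adjusted p = 0.869, limma). Cbx7 had levels of -0.62, -0.29 and 0.09 in control, -1.01, -0.61 and 0.53 in CUMS, -1.24, -1.01 and -0.75 in OVX and -1.08, -0.95 and -0.30 in OVX+CUMS mice, and control and OVX mice did not overlap. The Ezh1 probes had OVX effects of 0.18 and 0.14 that did not pass (adjusted p = 0.0611 and 0.162). With the E1A shift, which moved the median of all probes to 0.39, 7 probes were higher and 0 lower, and the falls of Cbx7 and Phc1 no longer passed. Of all 20748 probes 12084 passed then, against 11437 without the shift.

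None of these OVX calls was left with slide as a term, where 0 member probes passed, 0 had an unadjusted p under 0.05, and 0 of all 20748 probes passed. The effects were then 0.15 for Phc2, 0.205 for Suz12, 0.04 for Eed, 0.05 for Bmi1, -0.02 for Phc1 and 0.18 for Cbx7, which turned in sign. Control and OVX mice share no slide, so that OVX and slide can be told apart only through the stressed mice. The Bmi1 call was also lost in 9 of 24 fits that left out 1 array.

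An exact two-sided permutation test, which exchanged mice only within the levels of the other factor over 853776 regroupings, gave unadjusted p from 2.11e-05 (Ezh1, probe A_55_P2155942) to 0.0205 (Phc1) for the 7 CUMS calls in blood and from 7.03e-06 (Phc2) to 0.0165 (Bmi1) for the 6 OVX calls. For OVX the groups exchanged share no slide, so this test cannot tell OVX from slide. The interaction of OVX and CUMS passed for 0 of the 9 probes in limma, with 0 at an unadjusted p under 0.05 and 0 in the fit without moderation of the spread. It passed for 1.42% of all detected probes. The estimates ran from -0.28 ± 0.20 for Phc1 to 0.36 ± 0.29 for Cbx7.

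In mPFC all 10 genes were tested, with 15 probes among 28353, since Phf1 and Phc3 head the set by their blood values. Results of these data were known when the set was drawn up, so its choice was not independent of them. With OVX, 5 probes were higher and 0 lower, beside 19.1% higher and 11.7% lower of all detected probes. Phc3 had levels of 1.04, 1.19 and 1.33 in control, 1.22, 1.34 and 1.54 in CUMS, 1.21, 1.41 and 1.51 in OVX and 1.27, 1.44 and 1.58 in OVX+CUMS mice, and its OVX effect was 0.15 ± 0.05 (adjusted p = 0.0248, limma). The groups overlapped, and the sizes were small beside those in blood. Of the 4 Ezh1 probes 3 rose, by 0.12 ± 0.04 (A_55_P2082869, adjusted p = 0.0171), 0.22 ± 0.08 (A_55_P2017086, adjusted p = 0.0373) and 0.12 ± 0.05 (A_55_P2155942, adjusted p = 0.0496), the first and the last of which had -0.01 under the E1A spike-in shift. The fourth Ezh1 probe had 0.11 ± 0.05 (adjusted p = 0.1). Of 24 fits that each left out 1 array, the call was lost in 12 for A_55_P2017086 and in 16 for A_55_P2155942. The microglia markers (4 of 4 detected) had a mean log2 level, centred on the tissue, of -0.17 to 0 in control, -0.21 to 0.12 in CUMS, -0.03 to 0.2 in OVX and -0.08 to 0.32 in OVX+CUMS mice, and their part in these OVX rises was not tested.

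Phf1 gave a split answer in mPFC. The second probe rose with OVX by 0.17 ± 0.06 (adjusted p = 0.0393, limma) from levels of -2.50, -2.41 and -2.27 in control to -2.30, -2.09 and -1.64 in OVX mice, while the leading probe was at 0.00. Replicate 5 of the OVX group was the highest by this probe, whose call was lost in 12 of the 24 fits that left out 1 array. Suz12 (0.11, adjusted p = 0.0735), Ezh2 (0.14, adjusted p = 0.0775) and Phc2 (0.07, adjusted p = 0.0617) did not pass. With slide as a term 0 of the 15 probes passed, with 2 at an unadjusted p under 0.05, and 0 of all 28353 passed. The second Phf1 probe was then at -0.19 and Ezh1 probe A_55_P2017086 at -0.09. With the 75th percentile taken over detected probes 0 passed too, with 4 at an unadjusted p under 0.05. Of all 28353 probes 7575 passed in that fit.

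With CUMS 0 of the 15 probes passed in mPFC by limma, 1 had an unadjusted p under 0.05 and 0 passed without moderation of the spread, beside 4.2% of all probes. The nearest was Phc1, with levels of -0.07, -0.01 and 0.06 in control, 0.16, 0.26 and 1.06 in CUMS, 0.10, 0.19 and 0.36 in OVX and 0.20, 0.35 and 0.69 in OVX+CUMS mice. Its CUMS effect was 0.27 ± 0.08 (adjusted p = 0.0532, limma, with an unadjusted p of 0.000274 in the exact permutation test). Control mice lay below the other 3 groups without overlap. Their slide also held 2 CUMS mice, which were higher than control mice by 0.64 there, 1 of them being the highest array of all at 1.06. The other Phc1 probe, A_55_P2186405, missed detection in mPFC and without a filter had a CUMS effect of -0.13 (adjusted p = 0.622, limma). The interaction passed for 0 of 15 probes, with 2 at an unadjusted p under 0.05 and 0 without moderation of the spread, beside 4.47% of all probes.

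**Figure D4:**
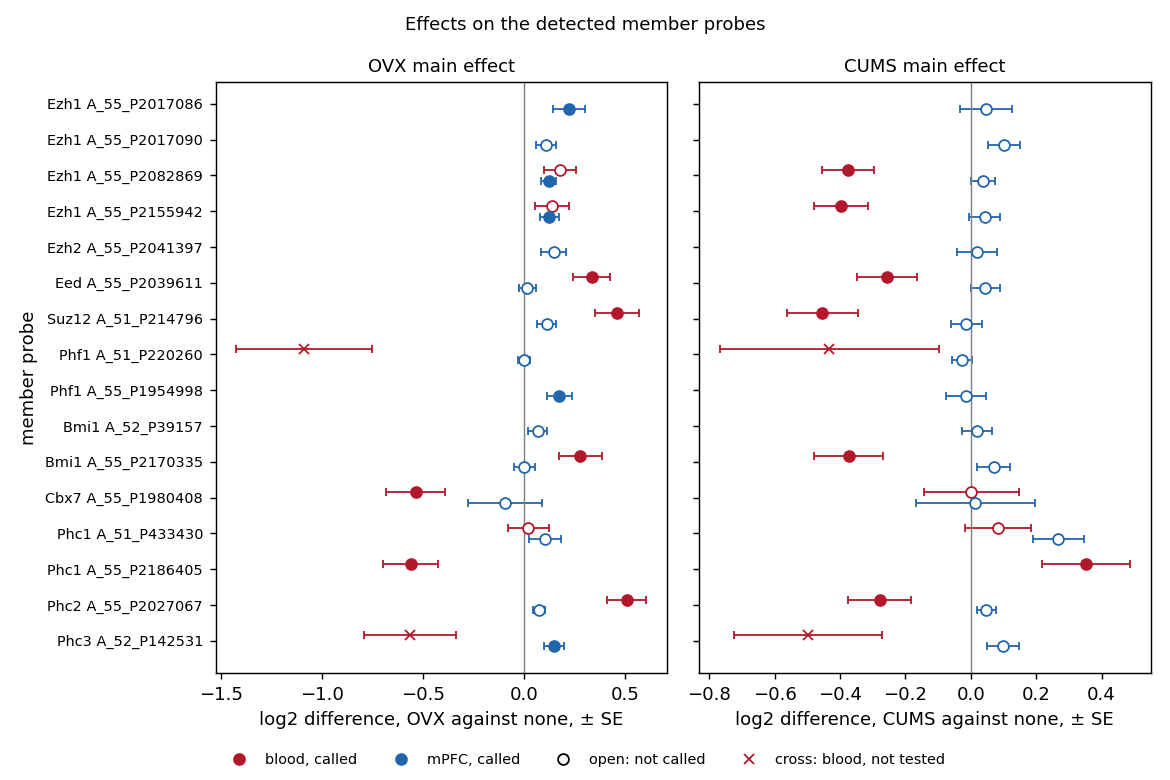
OVX and CUMS effects (log2 difference, x axis) on each tested probe (y axis) in blood and mPFC, with bars of 1 standard error and filled marks for adjusted p under 0.05. Crosses are Phf1 and Phc3 in blood, not tested. In blood the PRC2 core, Bmi1 and Phc2 lie right of 0 for OVX and left of 0 for CUMS, while in mPFC the effects stay within 0.27 of 0.

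Whether an effect differed between tissues was tested on 17529 probes that both tissues showed, and the mouse entered as a random block. The CUMS effect differed for 6 of the 8 member probes with a test, all lower in blood, beside 51.4% of all probes. The difference of the effect, blood minus mPFC, was -0.44 for Bmi1 and Suz12, -0.41 and -0.44 for the Ezh1 probes, -0.33 for Phc2 and -0.30 for Eed, and all 6 held with slide as a term. Under the E1A spike-in shift 5 of 8 passed, beside 5260 of all 17529 probes, and Eed did not (adjusted p = 0.0529, limma). The OVX effect differed for 3 of 8, beside 39.3% of all probes: Phc2 by 0.43, Suz12 by 0.35 and Eed by 0.32. None of these 3 held with slide as a term (0 probes passed, 0 at an unadjusted p under 0.05). For Phf1 and Phc3 the differences of the OVX effect were -1.09 and -0.71 and those of the CUMS effect -0.41 and -0.60, with no test since blood values chose them.

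In control mice alone, blood and mPFC could be tested for the 8 probes detected in both that belong to genes other than Phf1 and Phc3. Tissue and slide cannot be told apart in this comparison. Of the 8 probes 2 were higher in blood and 6 lower, beside 53.8% higher and 39.3% lower of all probes, with a median difference of 0.485. Cbx7 was higher in blood by 2.83 ± 0.11 (adjusted p = 4.12e-12), with -0.62 to 0.09 in blood and -3.39 to -2.94 in mPFC. Before scaling, its mean signal was 87.9 in control blood and 73.9 in control mPFC, so the size of this difference rests on the scaling. Under the E1A shift the Cbx7 difference was 0.78. Eed was higher by 0.77 ± 0.08 (adjusted p = 2.93e-07), but lower by the E1A shift, at -1.28. That shift moved the median of all probes to -1.57.

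Bmi1 differed by -1.26 ± 0.12 between blood and mPFC (adjusted p = 8.45e-08, limma). Phc1 differed by -0.92, Phc2 by -0.84, the Ezh1 probes by -0.50 and -0.37, of which the latter (A_55_P2155942) was at 0.04 after quantile normalization, and Suz12 by -0.31. Both Suz12 (adjusted p = 0.283 and 0.251) and this Ezh1 probe lost the call after quantile normalization and with the percentile over detected probes, which left 6 of the 8. For Phc3 the difference was -1.69 and for Phf1 -0.585, with no test since blood values chose them. The Phf1 levels of control blood were spread from -0.44 to 1.93 beside 1.26 to 1.43 in mPFC.

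The probes of Cbx7 did not follow each other. Probe A_55_P1980401 missed detection in both tissues and lay by slide: in blood it ran from -4.36 to -2.16 on slide 1, from -5.83 to -4.38 on slide 2 and from -3.37 to -2.19 on slide 3. In mPFC it ran from -2.53 to -1.77 on slide 1, from -5.28 to -4.22 on slide 2 and from -5.08 to -4.20 on slide 3. In mPFC the 2 CUMS mice of slide 1 lay next to the control mice and the 4 of slide 2 among the OVX mice. The detected probe, A_55_P1980408, had means of -3.14, -3.24 and -3.30 on mPFC slides 1, 2 and 3 and of -0.20, -0.89 and -0.91 on the blood slides. Without a detection filter the former probe would show an OVX effect of -1.675 in mPFC (adjusted p = 0.000303, limma).

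**Figure D5:**
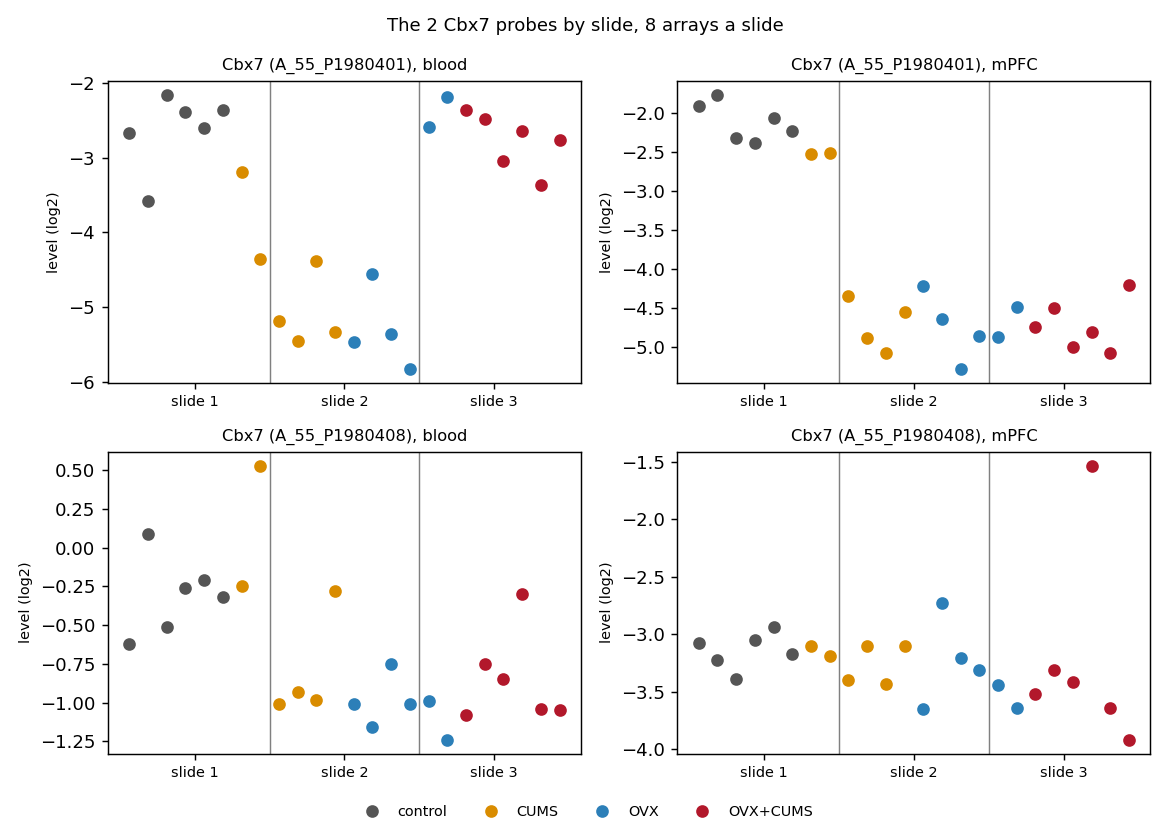
Log2 levels of both Cbx7 probes (y axis) by slide (x axis) in blood and mPFC, 1 point per array and coloured by group. Probe A_55_P1980401 drops on slide 2 in blood (mean -5.20 beside -2.91 and -2.68) and on slides 2 and 3 in mPFC (-4.73 and -4.71 beside -2.22), for both groups on each slide.

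The other genes of the Polycomb system were taken as a list of 51 genes, of which 50 are on the array with 86 probes. In blood 48 probes of 36 genes were detected. With CUMS 25 were lower and 7 higher, beside 29.4% lower and 19.1% higher of all probes, with a median of -0.25 against -0.03. With OVX 15 were higher and 6 lower, beside 27.4% higher and 27.7% lower of all probes, with a median of 0.17 against 0.04. With slide as a term the CUMS counts were 26 lower and 7 higher, while for OVX 0 of the 48 and 0 of all 20748 probes passed. The larger CUMS falls were in Rnf2 (-0.57 ± 0.14, adjusted p = 0.00371, limma), the ubiquitin ligase of PRC1, and in a Cbx6 probe (A_51_P391764, -0.47). Other Cbx6 probes rose by 0.59 (A_51_P221428) and 0.73 (A_55_P2111741), so that the probes of this chromodomain gene disagree. With slide as a term these rises did not pass (0.70, adjusted p = 0.0724, and 0.36, adjusted p = 0.113, limma). The Cbx6 fall still passed there (-0.52, adjusted p = 0.0127, limma). With OVX Dcaf7 (-0.84) and Mbd5 (-0.82) were the largest falls and Cbx6 (0.49) and Kdm2b (0.46), a histone demethylase that brings a variant PRC1 to CpG islands, the largest rises, and none of these 4 calls was left with slide as a term.

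In mPFC 71 probes of 49 genes on the list were detected, and 13 were higher and 4 lower with OVX, beside 19.1% higher and 11.7% lower of all probes. Phf19 (0.37), a relative of Phf1, and Bap1 (0.21), which removes the PRC1 mark, were the largest rises, and Cbx8 (-0.43, SE 0.06) and Pcgf2 (-0.23), a relative of Bmi1, the largest falls. With CUMS 1 was higher, Epop (0.30, adjusted p = 0.00436, limma), a PRC2 partner, and 0 were lower, beside 2.33% higher and 1.87% lower of all probes. With slide as a term 0 of all 28353 probes passed for either effect, so that none of these calls was left, and Epop had 0.27 with CUMS (adjusted p = 0.324, limma).

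Classical targets of the complexes were mostly dark. Of 42 target genes, which were all Hox genes, Cdkn2a, Cdkn2b and Cdkn1c, 2 were detected in blood. Hoxa6 had an OVX effect of -0.65 and a CUMS effect of 0.48 (adjusted p = 0.0025 and 0.0196, limma), and Hoxa7 had -0.32 and 0.29 (adjusted p = 0.0188 and 0.0332). With slide as a term the CUMS effect was 0.81 for Hoxa6 (adjusted p = 0.00921, limma) and 0.12 for Hoxa7 (adjusted p = 0.493), and neither OVX call was left, with effects of 0.01 and -0.66 (adjusted p = 0.996 and 0.72). In mPFC the cell cycle inhibitors Cdkn1c and Cdkn2b were detected and passed no test, with CUMS effects of 0.40 (adjusted p = 0.0696) and 0.04 (adjusted p = 0.896).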

How the data were processed

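RNA of 24 blood pellets and 24 mPFC samples was labelled with Cy3 and hybridized to SurePrint G3 mouse arrays by the authors. Each mouse was taken to have given 1 sample of each tissue. The deposited intensity comes from Feature Extraction 10.7.3.1, which the authors ran with background subtraction and no scaling between arrays. The authors also deposited normalized log2 values, for which each array was shifted to its 75th percentile. Up to 1 constant per array, 99.8% of these differed by at most 0.001 log2 from those used here. No column of samples was left unused.

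Control spots and outlier spots (98 to 206 per array) were left out, repeated spots were averaged per probe on the log2 scale, and no spot was saturated. The raw intensity minimum of 50 in the methods was read as the processed signal. Linear models were fitted in limma 3.58.1 under R 4.3.3 (empirical Bayes moderation, two-sided, Benjamini-Hochberg at 0.05), on 20748 probes in blood and 28353 in mPFC. Comparisons of tissues had mouse as random block (correlation 0.0591 for the difference of effects and 0.00218 for control mice alone). Scripts were tested on simulated data. Number of mice and signal over background limit the precision. The p-values rest on the spread between arrays, each of 1 mouse and tissue, which holds differences of mice, arrays and slides together.

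Members, marker lists and the wider list were chosen with earlier results of these data known. The text names every member, the 3 probes most like Phf1 and Phc3 (1 of them is not reported here), and the 2 largest called rises and falls of the wider list per tissue and effect. Where detected probes of a member disagree on a call, all are given. Of probes that missed detection and of the wider list, not all are given. Alternatives changed the background (normexp, offset 50), the scaling (quantiles, a 75th percentile of detected probes alone, the E1A spike-ins or the values normalized by the authors), the detection filter (none), the spread (unmoderated), the block (slide, or replicate number) and the arrays (each left out in turn). Whether a probe lies in an exon or an untranslated region was not analysed here.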

Additional observations from a re-analysis of the deposited data

Results flagged for a closer look

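Single arrays apart from the other 5 of their group by Dixon's test were found in 8 of 104 groups of a probe. Chance flags about 1 in 20 groups. In blood these were Ezh1 by probe A_55_P2155942 in OVX+CUMS replicate 4 (1.35, the nearest at 1.75) and Phc2 in control replicate 2 (2.53, the nearest at 3.1). In mPFC they were Cbx7 by probe A_55_P1980408 in OVX+CUMS replicate 4 (-1.53, nearest -3.31), Ezh1 by A_55_P2017090 in control replicate 2 (-0.97, nearest -1.16), Phc1 in CUMS replicate 1 (1.06, nearest 0.31) and in OVX+CUMS replicate 6 (0.69, nearest 0.38), Phc2 in CUMS replicate 2 (3.83, nearest 3.98), and Phf1 by A_55_P1954998 in OVX replicate 5 (-1.64, nearest -2.06). Without mPFC OVX+CUMS replicate 4, the OVX effect on Cbx7 in mPFC passed, at -0.26 (adjusted p = 0.0385 in limma).

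Effects that differed between blood and mPFC by limma's test of the difference, blood minus mPFC, were those of CUMS on Ezh1 (-0.41 by A_55_P2082869, adjusted p = 0.000267, and -0.44 by A_55_P2155942, adjusted p = 0.000353), Bmi1 (-0.44, adjusted p = 0.00237), Suz12 (-0.44, adjusted p = 0.00258), Phc2 (-0.33, adjusted p = 0.00642) and Eed (-0.30, adjusted p = 0.0109). Those of OVX were on Phc2 (0.43, adjusted p = 0.000734), Eed (0.32, adjusted p = 0.0091) and Suz12 (0.35, adjusted p = 0.0165).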

How the results depend on the processing

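Slide as a block left 0 called member probes for OVX in blood (6 before), 0 for OVX in mPFC (5 before) and 0 for the difference of the OVX effect between tissues (3 before), while CUMS in blood kept 7. It turned Cbx7 in blood with OVX (0.18) and, in mPFC with OVX, Phf1 by A_55_P1954998 (-0.19) and Ezh1 by A_55_P2017086 (-0.086), and moved the differences of OVX+CUMS from control in blood to -0.48 for Phf1 and -0.31 for Phc3. The OVX calls in mPFC were 2 after quantile normalization, 0 with the percentile over detected probes, 0 with the E1A shift and 2 with no detection filter. All probes called were then 7811, 7575 and 6098 of 28353, and 7666 of 55681, against 8750 of 28353 before. The CUMS calls in mPFC were 1 with the E1A shift (Phf1, -0.15), beside 4930 of all 28353 probes against 1191 before. Between blood and mPFC of control mice, all 8 probes of genes other than Phf1 and Phc3 were called before. Of these 8, 6 were called after quantile normalization and with the percentile over detected probes. All 8 were called with the E1A shift and with no detection filter. A wider count, 9 before, includes Phf1 and Phc3, whose part in it is no test since blood values chose them. This wider count was 7 after quantile normalization and with the percentile over detected probes. It was 10 with the E1A shift and 17 with no detection filter, which tests more probes. The differences of the OVX effect between tissues were 5 with normexp, 5 with quantile normalization, 7 with the E1A shift and 7 with no filter. All probes called were then 7783, 8194 and 11456 of 17529, and 11999 of 55681, against 6890 of 17529 before. The E1A shift moved the median of all probes from 0.04 to 0.39 (OVX) and from -0.03 to -0.33 (CUMS) in blood, and from 0.04 to -0.09 and from 0.01 to -0.11 in mPFC. It turned Ezh1 in mPFC with OVX (-0.014 and -0.011), Eed between tissues (-1.28) and the Phc1 difference of the OVX effect (0.40), and quantile normalization turned Ezh1 by A_55_P2155942 between tissues (0.038). The causes were not tested.

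Leaving out 1 array gave 5 to 7 called probes for OVX and 5 to 7 for CUMS in blood. In mPFC it gave 2 to 6 for OVX and 0 to 1 for CUMS (1 without CUMS replicate 1 or 2). The differences of the OVX and CUMS effects between tissues had 3 to 4 and 6 to 6, and both interactions 0 to 0. For OVX in mPFC 12 of the 24 arrays moved the count by over 1.5 times: control replicates 1, 2, 4 and 5, CUMS 1 and 2, OVX 2, 3 and 5, and OVX+CUMS 1, 4 and 5. Among the called differences of single probes, 6 lost the call without 1 array at least once. With the replicate number as a block the counts were 6 (OVX) and 7 (CUMS) in blood and 4 (OVX) in mPFC. Of all probes 10812 and 9344 of 20748 passed in blood and 8795 of 28353 in mPFC. Without the mouse block all 8 probes other than those of Phf1 and Phc3 were called between tissues in control mice. The differences of the OVX and CUMS effects then had 3 and 6 calls, beside 6477 and 8576 of all 17529 probes. Same-numbered mice did not deviate together (correlations -0.51 to 0.49 in blood, -0.23 to 0.39 in mPFC), so the numbers only name mice.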

Other observations

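Dim Phc3 probes gave single bright arrays in blood. Phc3 probe A_55_P1985530 was at -0.53 (signal 72.1) in 1 control array, where its lowest blood level was -6.44, and Phc3 probe A_55_P2127238 reached 0.38 (signal 71.3) in 1 array where its lowest was -5.61. These values enter no comparison.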
